A study of Homo sapiens with 23 samples.

Results

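The interaction between STAT3 depletion and Src activation was examined in MCF10A-ER-Src cells after 4 h, as the TAM effect in siSTAT3 cells minus the TAM effect in siNEG cells. It rests on 12 of the 23 expression arrays of the series, the siNEG_EtOH, siNEG_TAM, siSTAT3_EtOH and siSTAT3_TAM groups of 4 h with 3 arrays each, which were chosen by their labels, and it was computed for all 54675 probe sets and 19775 genes. MCF10A is a non-transformed human mammary epithelial cell line, and every cell of the series carries ER-Src, the v-Src kinase joined to the hormone-binding part of the estrogen receptor. Before treatment the cells grew for 48 h with 25 nM of an siRNA pool, either non-targeting (siNEG) or directed at STAT3 (siSTAT3), in medium that held EGF, insulin, cholera toxin and hydrocortisone. They then received 1 µM 4-hydroxytamoxifen (TAM), which switches on the kinase, or ethanol (EtOH), and RNA was collected 4 h later, or 24 h later for the other 11 arrays. Because every group carried ER-Src, an effect of tamoxifen that does not pass through the kinase cannot be told apart from that of Src. The methods speak of biological triplicates, while nothing in the labels says that the 3 arrays of a group came from separate cultures, so p-values may measure technical spread alone.

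STAT3 is a transcription factor that waits in the cytoplasm and, once phosphorylated on tyrosine by Janus kinases or by Src, dimerizes and enters the nucleus to bind palindromic sites. It is known for the acute-phase response, in which liver and epithelial cells secrete protease inhibitors and other defence proteins under the influence of IL6, and for its own feedback inhibitor SOCS3. In mammary epithelium it is known for driving involution, and it is active in many breast tumors. A negative interaction here means that TAM raised a gene less, or lowered it more, in siSTAT3 cells than in siNEG cells, and a positive interaction means the reverse.

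STAT3 signal followed the siRNA labels on all 12 arrays. The main STAT3 probe set read 3914 to 4091 units in siNEG cells with EtOH and 5128 to 5974 units with TAM, against 298 to 355 and 393 to 475 units in siSTAT3 cells, and the STAT3 interaction was -0.11 (SE 0.19, adjusted p = 0.954). The signal unit is the MAS5 summary of 1 probe set on a linear scale. Median signal ranged from 73.5 to 85.3 units over the 12 arrays and 44.6% to 46.9% of probe sets read over 100 units, the level under which a signal is called low here. Of 6 measured basal mammary epithelial markers, all 6 read over 100 units in all 4 groups, namely KRT5, KRT14, ITGB4, LAMB3, CDH3 and EGFR, as did 5 of 9 luminal markers. By the looser rule of over 100 units in at least 1 group, 6 of 9 luminal markers passed. Fibroblast markers that passed it were COL1A1, DCN and FAP (3 of 8, all 3 in all 4 groups). Immune markers that passed it were CD14, CD79A and FCER1G (3 of 7, 1 of them in all 4 groups). Among endothelial markers PECAM1 alone passed (1 of 6), in all 4 groups. None of these 36 markers had a called interaction, and 0.521% of all genes did.

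The early response to TAM differed between siSTAT3 and siNEG cells in a small group of genes, most of them with a weaker induction in siSTAT3 cells. The interaction was called, at an adjusted p under 0.05 over all probe sets, for 103 of 19775 genes (0.521%), each gene read by its most abundant probe set, and for 218 of the probe sets (0.399%). Of the 103 genes, 65 had a negative interaction (0.329% of genes) and 38 a positive one (0.192%). They are termed lower and higher genes here, by the sign of the interaction and not by their level in siSTAT3 cells. At an unadjusted p under 0.05 the number was 1625 genes (8.22%). With each array centred on its median, which moved the median interaction of all genes by -0.11, 71 genes were lower and 12 higher, so the lower group was 63.1% of the calls in one scaling and 85.5% in the other. The count of 38 fell to 22 without siNEG EtOH replicate 2 or siSTAT3 TAM replicate 1, to 23 without siSTAT3 EtOH replicate 1 or siSTAT3 TAM replicate 3, and to 25 without siNEG TAM replicate 1 or 3, all of 4 h. The spread of the fit came from all 23 arrays, and with the 12 arrays of 4 h alone 23 genes were lower and 9 higher. That fit lost the calls of 23 of the 42 called genes named here, with the sign of each unchanged, which were SLC43A2, TENT5C, ADAMTS9, BCL6, ARRDC3, ETS2, NFIL3, ZFP36 and CEBPD in the lower group and SNAI2, IL1A, KLF13, EGR1, GADD45A, TFCP2L1, RAPH1, DKK1, IRX4, ZBED2, HMGA2, KLF12, ERRFI1 and ABTB2 in the higher group. In bulk RNA, a lower signal from fewer cells of a kind and from less RNA per cell cannot be told apart.

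Most of the 65 lower genes were raised by TAM in siNEG cells. TAM raised 59 of them there with no called change in siSTAT3 cells. Of all genes 1.67% were raised in siNEG cells, whatever their change in siSTAT3 cells, a wider class than that of the 59. The median log2 TAM effect over all 65 was 0.93 in siNEG cells and 0.06 in siSTAT3 cells, beside -0.06 and -0.02 over all genes. TAM raised PPP1R3B, a targeting subunit of protein phosphatase for glycogen, and TM4SF1, a cell surface protein of many carcinomas, in both kinds of cell (0.551% of all genes were raised in siSTAT3 cells). The amino acid transporter gene SLC43A2 was raised in siNEG cells and lowered in siSTAT3 cells. FLRT3, which encodes an adhesion protein, was lowered in siSTAT3 cells with no called change in siNEG cells, and HS3ST3B1 and PCNX3 passed in neither. The 38 higher genes mirrored this with smaller values, with a median TAM effect of -0.62 in siNEG cells and 0.16 in siSTAT3 cells. TAM lowered 27 of them in siNEG cells with no called change in siSTAT3 cells, a number that fell to 14 to 17 without siNEG EtOH replicate 2, siNEG TAM replicate 3, siSTAT3 EtOH replicate 1 or 2 or siSTAT3 TAM replicate 1 or 3 of 4 h. Of all genes 1.57% were lowered in siNEG cells, again whatever their change in siSTAT3 cells. For comparison, TAM changed 641 genes in siNEG cells (3.24%) and 166 in siSTAT3 cells (0.839%), the last falling to 78 to 97 without any of the siSTAT3 EtOH replicates or siSTAT3 TAM replicate 1 or 2. These TAM effects use the same arrays as the interaction and describe it without testing it.

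**Figure D1:**
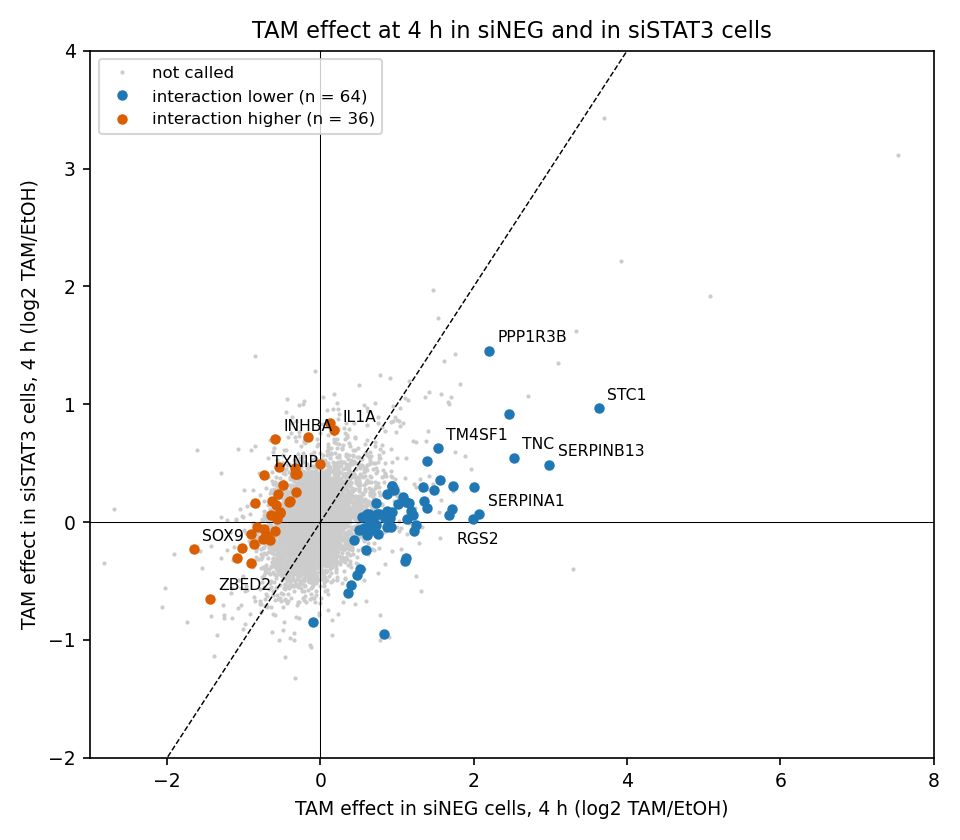
Log2 TAM effect at 4 h in siSTAT3 cells (vertical axis) against that in siNEG cells (horizontal axis) for genes with a group mean not under 100 units, 1 point per gene, with the 64 lower and 36 higher genes with a called interaction in blue and orange, axes of different scale and the dashed line at equal effects. Most blue points lie to the right near a siSTAT3 effect of 0, while PPP1R3B and TM4SF1 keep a part of their rise and INHBA and IL1A lie above 0 on the vertical axis.

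Among called genes of at least 100 units the 4 most negative interactions were those of STC1, SERPINB13, SERPINA1 and TNC, which encode a hormone, 2 protease inhibitors and a matrix protein. SERPINA1 encodes alpha-1-antitrypsin, the acute-phase inhibitor of neutrophil elastase. For SERPINA1, siNEG cells read 2004, 2041 and 2081 units with EtOH and 8424, 8257 and 9137 units with TAM, and siSTAT3 cells 1442, 1387 and 1619 and 1856, 1415 and 1421 units. The 3 siNEG TAM arrays stood far above the other 9, and the EtOH and TAM arrays of siSTAT3 cells overlapped. The SERPINA1 interaction was -2.01 (SE 0.19, adjusted p = 7.4e-05). SERPINB1 encodes an intracellular inhibitor of neutrophil proteases. For this gene siNEG cells read 1636, 1751 and 1737 units with EtOH and 6572, 7229 and 6698 units with TAM, and siSTAT3 cells 1526, 1349.9 and 1399.5 and 1811, 1784 and 1648 units. Its siSTAT3 TAM arrays lay a little above the siSTAT3 EtOH arrays and near the level of EtOH-treated siNEG cells, with an interaction of -1.70 (SE 0.12, adjusted p = 3.1e-06). SERPINB13, a keratinocyte inhibitor of cathepsins, was low in EtOH-treated siNEG cells, where 75.6, 87.4 and 64.6 units rose to 601, 622 and 569 units with TAM, against 105, 131 and 143 and 210.1, 144 and 179 units in siSTAT3 cells. None of the 4 groups overlapped, although the EtOH and TAM arrays of siSTAT3 cells nearly met. Its interaction was -2.50 (SE 0.26, adjusted p = 0.000131).

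Of the 10 measured clade B serpins, SERPINB1 and SERPINB13 were the 2 called, both lower (0.329% of all genes were). The list was chosen with earlier results of these data known, so this count is a description. The list median was -0.55 beside 0.03 over all genes. SERPINB3, the squamous cell carcinoma antigen and the most abundant of the clade in siNEG cells with TAM, was not called in the fit of 23 arrays although no 2 of its groups overlapped. For SERPINB3 siNEG cells read 1768, 1796 and 1869 units with EtOH and 14936, 16498 and 14971 units with TAM, and siSTAT3 cells 371, 324 and 314 and 975, 918 and 701 units. Its siSTAT3 arrays lay below EtOH-treated siNEG cells with or without TAM, and the TAM effects on the log2 scale were 3.09 in siNEG cells and 1.35 in siSTAT3 cells, the last with an adjusted p of 0.0887. The SERPINB3 interaction of -1.74 (SE 0.46, adjusted p = 0.182) had an adjusted p of 0.0156 in the fit of the 12 arrays of 4 h, where the SE was 0.19. SERPINB4, a near-identical copy of SERPINB3, had -1.70 (SE 0.73, adjusted p = 0.587), and how far the probes of each read the other was not tested. SERPINB5, or maspin, had 0.16 and SERPINB8 -0.10, neither called.

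STC1 encodes stanniocalcin, a secreted glycoprotein hormone of calcium and phosphate balance. For STC1 siNEG cells read 262, 269.8 and 292 units with EtOH and 3424, 3755 and 3043 units with TAM, and siSTAT3 cells 129, 126 and 122 and 372, 225 and 177 units. TAM arrays of siNEG cells exceeded all others, and the siSTAT3 TAM arrays lay above the siSTAT3 EtOH arrays by a difference that did not pass the test, at 0.97 (SE 0.26, adjusted p = 0.14). The STC1 interaction was -2.66 (SE 0.37, adjusted p = 0.00191). TNC encodes tenascin-C, a matrix glycoprotein of wounds and tumor stroma. For TNC siNEG cells read 431, 368 and 443 units with EtOH and 2017, 2548 and 2601 units with TAM, and siSTAT3 cells 486, 604 and 697 and 843, 900.3 and 842 units. Its 4 groups did not overlap. ADAMTS9, a secreted protease of versican, had an interaction of -1.54 (SE 0.30, adjusted p = 0.0334) between a TAM effect of 2.46 in siNEG cells and 0.92 in siSTAT3 cells. Its call was lost in 10 of the 23 fits that left out 1 array, with adjusted p of up to 0.1. STC1, TNC and ADAMTS9 were the 3 called members of the list of 29 measured matrix glycoproteins and proteases, whose median was 0.03. STC1 was placed in that list although it encodes a hormone, so TNC and ADAMTS9 alone are matrix genes among them. All 3 were lower, as were 0.329% of all genes. The urokinase receptor gene PLAUR of the same list, which focuses plasmin at the cell surface, showed a like TAM effect in both kinds of cell from different levels. For PLAUR siNEG cells read 2838, 2989 and 3106 units with EtOH and 6060.2, 6718 and 6429 units with TAM, and siSTAT3 cells 5992, 6102 and 5997 and 12410.0, 12455 and 12583 units. The siSTAT3 arrays were the higher at each treatment, and the interaction was -0.05 (95% interval -0.49 to 0.38).

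**Figure D2:**
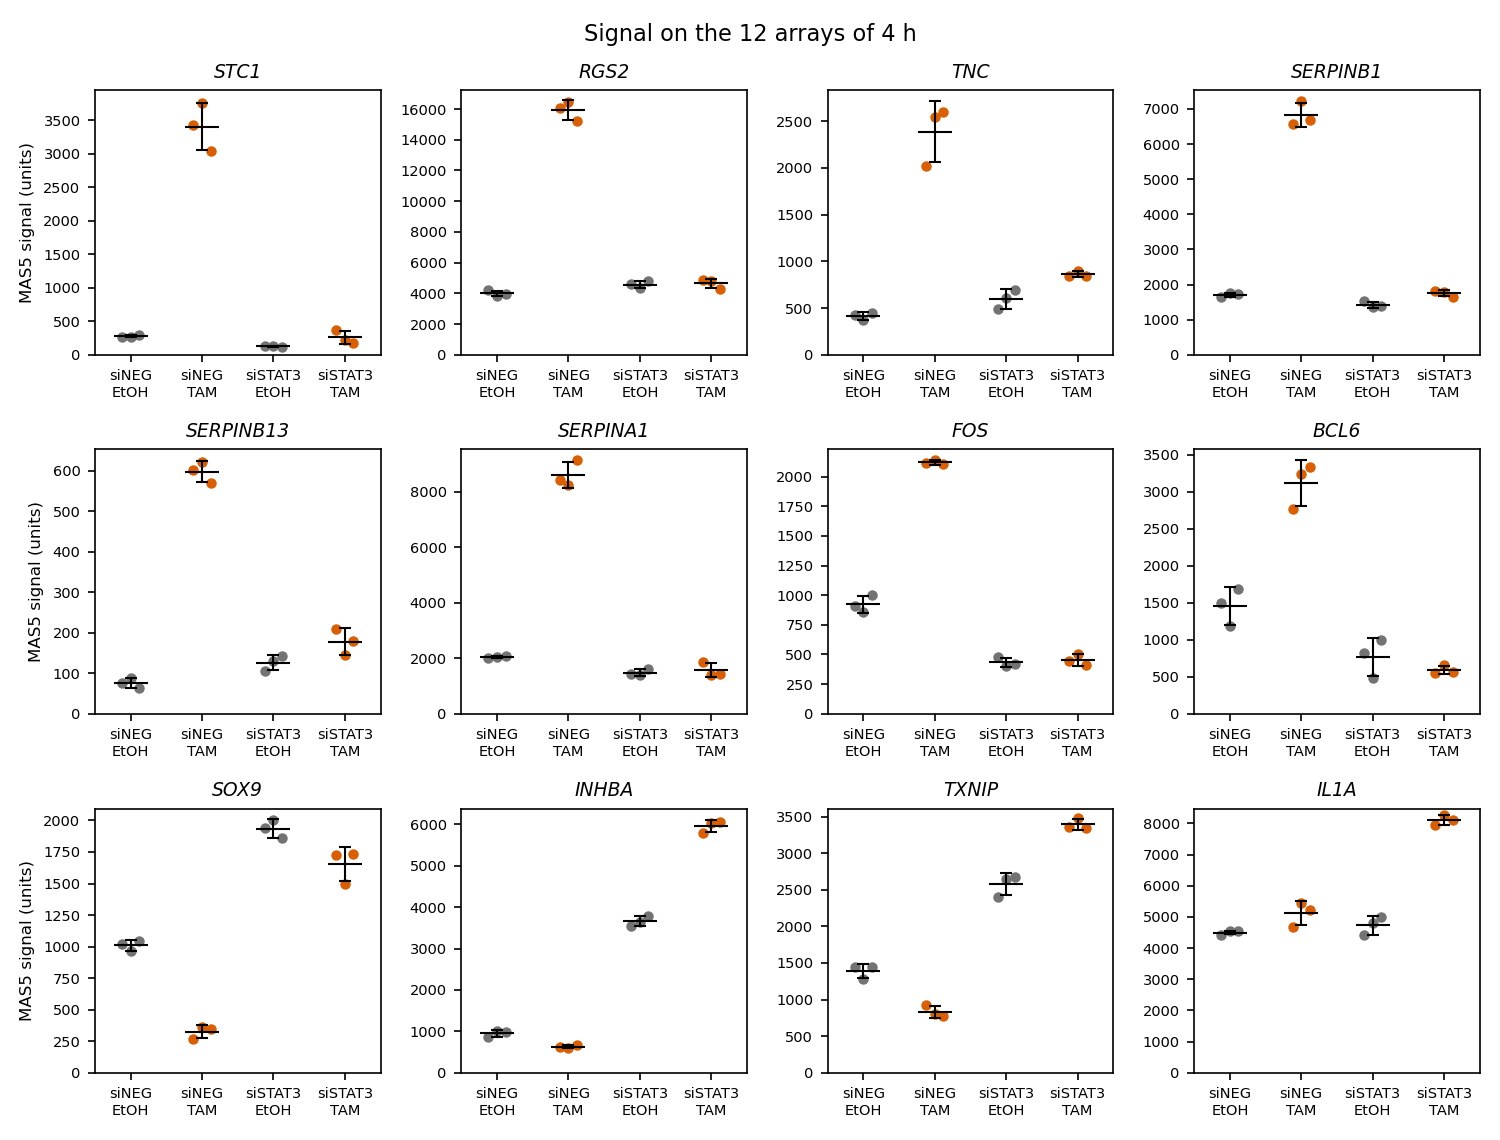
MAS5 signal in units (vertical axes, linear from 0) of 12 genes on the 12 arrays of 4 h, with EtOH arrays in grey, TAM arrays in orange, lines at the group means and bars of 1 SD (n = 3). In the upper 8 panels the siNEG TAM arrays stand above all others, while SOX9, INHBA and TXNIP are lowest there and IL1A is highest in siSTAT3 cells with TAM.

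In the list of known STAT3 targets and acute-phase genes, 5 of 29 measured were lower and none higher, against 0.329% and 0.192% of all genes. This list, like the others, was chosen with earlier results of these data known, so the count describes its members and tests nothing. The list median was -0.22 beside 0.03 over all genes. The 5 were SERPINA1, BCL6, FOS, VEGFA and CEBPD. BCL6 encodes a transcriptional repressor of the germinal center that also marks the involuting mammary gland. For BCL6 siNEG cells read 1493, 1185 and 1689.5 units with EtOH and 2764, 3246 and 3338 units with TAM, and siSTAT3 cells 823, 489 and 998 and 545, 654 and 568 units. TAM arrays were the highest in siNEG cells and fell within the EtOH range in siSTAT3 cells, with an interaction of -1.44 (SE 0.29, adjusted p = 0.0385). This call is not firm, since it was lost in 17 of the 23 fits that left out 1 array (adjusted p up to 0.115). A second BCL6 probe set, with group means of up to 622 units, gave -0.28 (SE 0.27, adjusted p = 0.892). FOS encodes the AP-1 subunit of the early growth response. For FOS siNEG cells read 912, 855 and 997 units with EtOH and 2114, 2141 and 2104 units with TAM, and siSTAT3 cells 480.2, 404 and 417 and 442, 507 and 408 units. The 3 siNEG TAM arrays lay close to each other and above all others, and siSTAT3 cells were under EtOH-treated siNEG cells with or without TAM. The FOS interaction was -1.14 (SE 0.16, adjusted p = 0.0017).

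VEGFA, the growth factor of blood vessels, averaged 4145 ± 136 units in EtOH-treated siNEG cells and 7426 ± 113 after TAM (mean ± SD, n = 3), against 3804 ± 223 and 3906 ± 120.0 units in siSTAT3 cells. Its interaction was -0.80 (SE 0.10, adjusted p = 0.0007), and the siSTAT3 EtOH and TAM arrays overlapped. CEBPD, a C/EBP factor of inflammation and of mammary involution, had an interaction of -0.67 (SE 0.10, adjusted p = 0.00399) between TAM effects of 0.68 and 0.01. Further transcription and RNA regulators in the lower group were ETS2, an ETS factor downstream of Ras, with -0.86 (SE 0.18, adjusted p = 0.0415), NFIL3, a bZIP repressor of the clock, with -0.77 (SE 0.15, adjusted p = 0.0382), and ZFP36, or tristetraprolin, which destabilizes cytokine mRNA, with -0.69 (SE 0.13, adjusted p = 0.0186). Without 1 array or another the calls of ETS2, NFIL3 and ZFP36 were lost in 18, 18 and 7 of 23 fits, and that of ETS2 also with median centring. The STAT3 target list also held genes with no called interaction. These included MYC at 0.04, CCND1 at 0.07, MCL1 at 0.03 and PIM1 at -0.06, which govern growth and survival and had no called TAM effect in either kind of cell.

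The promoters of the called genes were searched for a STAT site. The motif TTCNNNGAA, which is its own reverse complement and so reads alike on both strands, was searched from 250 bases before to 50 bases after the RefSeq start (GRCh38.p14). It was found in 5 of the 51 lower genes with a promoter entry (9.80%), in 1 of 30 higher genes (3.33%) and in 1069 of 15384 genes measured (6.95%). The 5 were SERPINB1, BCL6, CCDC71L, PNPLA8 and PLSCR1, and the 1 was EGR1. The stretches around the sites that lie before the start are shown 5′ to 3′ on the gene's strand, with the motif in capitals, so that the letters can be read beside the values of these genes. The window is near the start, and sites elsewhere were not searched. SERPINB1 (chr6:2842037-2842097, minus strand), BCL6 (chr3:187745469-187745522, minus), CCDC71L (chr7:106661255-106661315, minus), PNPLA8 (chr7:108528282-108528342, minus) and EGR1 (chr5:138465229-138465285, plus) read as follows.
SERPINB1: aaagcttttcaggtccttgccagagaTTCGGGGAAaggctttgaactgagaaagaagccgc
BCL6: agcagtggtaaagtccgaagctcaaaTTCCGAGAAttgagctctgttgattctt
CCDC71L: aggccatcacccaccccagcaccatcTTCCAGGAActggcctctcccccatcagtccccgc
PNPLA8: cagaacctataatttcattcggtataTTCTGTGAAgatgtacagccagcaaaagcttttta
EGR1: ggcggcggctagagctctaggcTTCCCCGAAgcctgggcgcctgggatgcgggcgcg

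RGS2, CLEC2B, NRP2, MCC, SH3TC1 and CCDC71L were further named genes of the lower group. RGS2 encodes an inhibitor of Gq signaling. For RGS2 siNEG cells read 4185, 3834 and 3986 units with EtOH and 16065, 16482 and 15195 units with TAM, and siSTAT3 cells 4586, 4318 and 4789 and 4846, 4796 and 4296 units. The siNEG TAM arrays stood far above all others, and the EtOH and TAM arrays of siSTAT3 cells overlapped. RGS2 was the 1 called gene among 15 measured RGS genes, and the others of at least 100 units lay between -0.22 and 0.29. CLEC2B encodes AICL, a C-type lectin ligand of an NK cell receptor. For CLEC2B siNEG cells read 428, 394 and 442 units with EtOH and 1460.3, 1387 and 1304 units with TAM, and siSTAT3 cells 331, 291 and 304 and 372, 379 and 264 units. Here too the siNEG TAM arrays stood above all others, with an interaction of -1.60 (SE 0.19, adjusted p = 0.000505). NRP2, a co-receptor of semaphorins and VEGF, had an interaction of -1.27 (SE 0.19, adjusted p = 0.00308), MCC, a gene mutated in colorectal cancer, of -1.42 (SE 0.16, adjusted p = 0.000359), SH3TC1 of -1.30 (SE 0.16, adjusted p = 0.000787) and CCDC71L of -1.42 (SE 0.19, adjusted p = 0.00115).

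TENT5C, a poly(A) polymerase that stabilizes mRNAs of secreted proteins, had -1.61 (SE 0.31, adjusted p = 0.0268) and lost its call in 9 of the 23 fits without 1 array. SLC43A2 averaged 84.0 ± 27.6 units in EtOH-treated siNEG cells and 146 ± 23.7 after TAM, against 84.6 ± 9.10 and 43.8 ± 4.75 in siSTAT3 cells (mean ± SD, n = 3). All values of SLC43A2 were near the low-signal limit, the EtOH groups overlapped, and TAM moved the siNEG arrays up and the siSTAT3 arrays down, an interaction of -1.78 (SE 0.27, adjusted p = 0.00425). ARRDC3, an alpha-arrestin that sends receptors to degradation, had -0.91 (SE 0.18, adjusted p = 0.0376), a call lost in 19 of those fits. Among the remaining lower genes were NAMPT, the rate-limiting enzyme of NAD salvage (-0.94), the cathepsins CTSL (-0.83) and CTSB (-0.72), the interleukin-1 receptor IL1R1 (-0.62) and the inflammatory caspase CASP4 (-0.75). The Rac activator TIAM1 (-0.96), the Ras pathway scaffold KSR1 (-1.27), the hypoxia factor EPAS1 (-0.57) and the DNA sensor IFI16 (-0.68) were further members. These 9 were picked for known function after their values were seen. All 65 lay between -4.65 and -0.51, the lowest being the dopamine receptor gene DRD3, whose 4 group means were all under 100 units.

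Among the 65 lower genes, PPP1R3B and TM4SF1 were those with a called rise in both kinds of cell. The TAM effect in siSTAT3 cells was above 0 in 42 of the 65 and below 0 in 23. Rises that were not called included those of ADAMTS9 (0.92, adjusted p = 0.0713) and ETS2 (0.52, adjusted p = 0.0797). For PPP1R3B siNEG cells read 705, 768 and 651 units with EtOH and 3164, 3499 and 3116 units with TAM, and siSTAT3 cells 627, 655 and 694 and 1915, 1791 and 1709 units. The EtOH groups overlapped and the siSTAT3 TAM arrays lay between them and the siNEG TAM arrays, so that the TAM effect was 2.20 in siNEG cells and 1.46 in siSTAT3 cells, and the interaction was -0.75 (SE 0.15, adjusted p = 0.0434). TM4SF1 had effects of 1.53 and 0.63 and an interaction of -0.90 (SE 0.16, adjusted p = 0.0152).

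**Figure D3:**
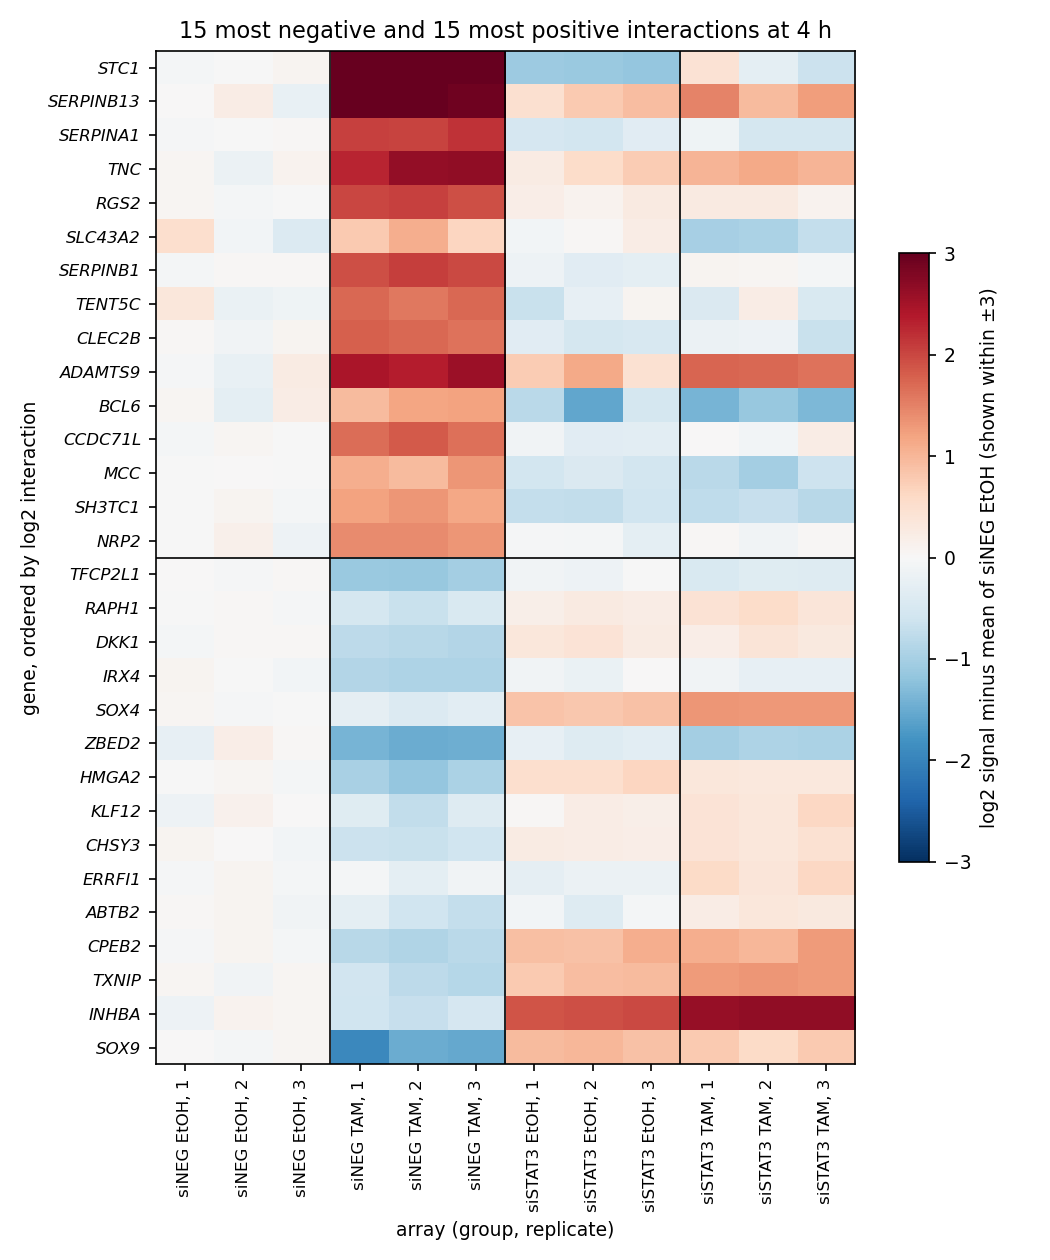
Log2 signal minus the mean of siNEG EtOH (color, shown within ±3) on the 12 arrays of 4 h (columns, by group and replicate) for the 15 most negative and 15 most positive called interactions among genes with a group mean not under 100 units (rows). The siNEG TAM block is red in the upper rows and blue in the lower rows, and in SOX4, HMGA2, CPEB2, TXNIP, INHBA and SOX9 the siSTAT3 blocks are red with both EtOH and TAM.

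Among called genes of at least 100 units the 2 most positive interactions were those of SOX9 and INHBA. SOX9, a transcription factor, specifies progenitor cells of the mammary gland and other epithelia. For SOX9 siNEG cells read 1022, 962 and 1045 units with EtOH and 265, 361 and 346 units with TAM, and siSTAT3 cells 1941, 2004 and 1859 and 1729, 1498 and 1736 units. TAM lowered SOX9 in siNEG cells, while in siSTAT3 cells all 6 arrays stayed above EtOH-treated siNEG cells and the TAM arrays lay below the EtOH arrays. The SOX9 interaction was 1.42 (SE 0.23, adjusted p = 0.00866). SOX4, a factor of TGF-beta induced plasticity, moved in opposite directions, from 3465 ± 119.6 to 2745 ± 127 units in siNEG cells and from 6223 ± 141 to 8552 ± 149.9 units in siSTAT3 cells (mean ± SD, n = 3). Both TAM effects passed the test, and the interaction was 0.80 (SE 0.10, adjusted p = 0.000941). HMGA2 encodes an architectural chromatin protein of embryonic cells and tumors. For HMGA2 siNEG cells read 2895, 3036 and 2763 units with EtOH and 1476, 1302 and 1502 units with TAM, and siSTAT3 cells 4094, 4103 and 4505 and 3677, 3626 and 3611 units. The siNEG TAM arrays alone lay under the EtOH-treated siNEG level, and the interaction was 0.81 (SE 0.10, adjusted p = 0.00111).

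TFCP2L1, a grainyhead family factor of epithelial and pluripotent cells, had 0.78 (SE 0.10, adjusted p = 0.0007). Its TAM effect was -1.09 in siNEG cells and -0.31 in siSTAT3 cells, the last with an adjusted p of 0.0508. IRX4, an Iroquois homeobox factor, had 0.80 (SE 0.14, adjusted p = 0.0169), and ZBED2, a zinc finger factor of keratinocytes, 0.80 (SE 0.14, adjusted p = 0.0146). TAM lowered ZBED2 in both kinds of cell, with log2 effects of -1.45 and -0.65, and it was the 1 gene of the 38 with both falls called. The TAM effect in siSTAT3 cells was below 0 in 14 of the 38. SNAI2, or Slug, a factor of basal mammary cells and of epithelial-mesenchymal transition, had 0.56 (SE 0.11, adjusted p = 0.0328) between TAM effects of -0.91 and -0.35. EGR1, the immediate early zinc finger factor, had 0.61 (SE 0.12, adjusted p = 0.0268), with TAM effects of -0.75 and -0.14. For EGR1 siNEG cells read 2718, 2688 and 2656 units with EtOH and 1578, 1464 and 1762 units with TAM, and siSTAT3 cells 2812, 3078 and 2784 and 2672, 2495 and 2679.9 units. Its siSTAT3 TAM arrays overlapped the EtOH-treated siNEG arrays. Leaving out 1 array lost the call of IRX4 in 3, of SNAI2 in 11 and of EGR1 in 9 of 23 fits, and centring on the array median lost all 3 as well as SOX4.

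Of the Kruppel-like factors, 2 of 14 measured were higher and none lower, against 0.192% and 0.329% of all genes. This list too was chosen with earlier results of these data known, and the count is a description. The list median was 0.29 beside 0.03 over all genes. The 2 were KLF13 at 0.60 (SE 0.10, adjusted p = 0.0133) and KLF12 at 0.81 (SE 0.17, adjusted p = 0.0461). KLF12 lost its call in 21 of the 23 fits without 1 array, and both lost it with arrays centred on their median, where the list median was 0.18. KLF4, a differentiation factor of epithelia, had 0.61 and an adjusted p of 0.168. The epithelial fate list held SOX9 as its 1 called gene of 16, with OVOL1 at 0.92 (adjusted p = 0.258) and OVOL2 at 0.81 (adjusted p = 0.177).

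Ligands and growth regulators in the higher group included INHBA, the beta A chain of activin. For INHBA siNEG cells read 861, 1017 and 985 units with EtOH and 629.6, 591 and 676 units with TAM, and siSTAT3 cells 3537, 3645 and 3779 and 5789.7, 6037 and 6050.0 units. No 2 groups overlapped, TAM lowered the siNEG arrays and raised the siSTAT3 arrays, and the highest siNEG signal was less than the lowest siSTAT3 signal. The INHBA interaction was 1.30 (SE 0.13, adjusted p = 9.87e-05). Its family member INHBB was under 100 units, and INHBA was the 1 called gene of 28 in the TGF-beta, activin and BMP list (median 0.16). DKK1, a secreted Wnt inhibitor, was the 1 called gene of 23 in the Wnt list. For DKK1 siNEG cells read 14779.6, 15593 and 15599.5 units with EtOH and 8950.1, 8613 and 8291 units with TAM, and siSTAT3 cells 19355, 20375 and 18135 and 17636, 19903 and 18781 units. TAM lowered DKK1 in siNEG cells with no called change in siSTAT3 cells, where the EtOH and TAM arrays overlapped. The DKK1 interaction was 0.79 (SE 0.12, adjusted p = 0.00574), and its adjusted p was 0.0895 with arrays centred on their median. The guidance ligands SEMA3C and SEMA3F had 0.67 and 0.58.

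TXNIP encodes an alpha-arrestin that inhibits thioredoxin and glucose uptake. For TXNIP siNEG cells read 1446, 1279 and 1438 units with EtOH and 927, 804 and 769 units with TAM, and siSTAT3 cells 2406, 2647 and 2678 and 3363, 3473 and 3339.7 units. The 4 groups did not overlap, the TXNIP interaction was 1.14 (SE 0.12, adjusted p = 0.00022), and ARRDC3 and TXNIP of 10 alpha-arrestin and glucose sensing genes were thus called in opposite directions. CPEB2, a regulator of poly(A) tails and translation, had 1.02 (SE 0.13, adjusted p = 0.00111). RAPH1, or lamellipodin, which extends the leading edge of cells, had 0.79 (SE 0.11, adjusted p = 0.00194), and CHSY3, a chondroitin synthase, 0.82 (SE 0.16, adjusted p = 0.0381), a call lost in 17 of 23 fits without 1 array. ABTB2 had 1.01 (SE 0.20, adjusted p = 0.0402) and lost its call in 18 of those fits, and CHSY3 and ABTB2 also lost theirs with median centring.

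In 5 of the 38 higher genes TAM had a called effect in siSTAT3 cells alone, and it was a rise. ERRFI1 encodes MIG6, a feedback inhibitor of the EGF receptor. For ERRFI1 siNEG cells read 4213, 4530.2 and 4155 units with EtOH and 4092, 3511 and 3965 units with TAM, and siSTAT3 cells 3593, 3828 and 3778 and 6435, 5506 and 6588 units. The siSTAT3 TAM arrays stood far above the rest. The siNEG EtOH arrays lay a little above the siNEG TAM and siSTAT3 EtOH arrays, which overlapped. The interaction was 0.88 (SE 0.13, adjusted p = 0.00269). IL1A encodes the alarm cytokine interleukin-1 alpha. For IL1A siNEG cells read 4429, 4534 and 4533 units with EtOH and 4691, 5457 and 5209.6 units with TAM, and siSTAT3 cells 4403, 4813 and 4992 and 7962, 8283 and 8099 units. The siSTAT3 TAM arrays were again the highest, with an interaction of 0.59 (SE 0.11, adjusted p = 0.0289) whose call was lost in 10 of 23 fits without 1 array. GADD45A, a growth arrest gene of the p53 response, had 0.71 (SE 0.12, adjusted p = 0.0133), the folate transporter gene SLC46A1 0.72 (SE 0.13, adjusted p = 0.0146) and ZNF281, a zinc finger repressor, 0.50 (SE 0.10, adjusted p = 0.046). Centring on the array median lost the calls of IL1A and GADD45A.

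Some of these genes differed between siSTAT3 and siNEG cells without TAM. In EtOH, 20 of the 65 lower genes were lower in siSTAT3 than in siNEG cells and 2 higher (SERPINB13 and DRD3), where 4.26% of all genes were called, 2.4% lower and 1.86% higher. Of the 38 higher genes, 13 were higher and 2 lower (C6orf163 and SDC3). STC1, BCL6, FOS, CEBPD and ETS2 were among the 20, and SOX9, SOX4, INHBA, TXNIP, HMGA2, CPEB2 and GADD45A among the 13. With TAM, where 9.31% of all genes were called, 64 of the 65 were lower (4.6%) and 37 of the 38 higher (4.71%), the exceptions being DRD3 and C6orf163. Both comparisons share their arrays with the interaction, so these counts describe the levels behind it.

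Among cytokine genes large values went uncalled. Of 20 measured cytokines of the IL6, IL1, IL10 and IL20 families, IL1A was the 1 called, and the median was 0.16. IL24 encodes a cytokine of the IL20 group. For IL24 siNEG cells read 413, 469 and 412 units with EtOH and 14339, 15679.7 and 13612 units with TAM, and siSTAT3 cells 314, 329 and 371 and 1296, 1297 and 1233 units. The groups were tight and did not overlap, and the TAM effect was 5.08 in siNEG cells and 1.92 in siSTAT3 cells on the log2 scale. The IL24 interaction of -3.16 (SE 0.80, adjusted p = 0.142) was not called in the fit of 23 arrays, in which the SD of log2 signal within groups was 0.10 at 4 h and 1.04 at 24 h, while the fit of the 12 arrays of 4 h gave an SE of 0.15 and an adjusted p of 0.000153. SOCS3 encodes the feedback inhibitor of the IL6 receptor. For SOCS3 siNEG cells read 425, 482 and 459.9 units with EtOH and 4565, 4524 and 4739.9 units with TAM, and siSTAT3 cells 119, 119 and 116 and 403, 395 and 299 units. TAM raised SOCS3 in both kinds of cell from levels that did not overlap, with an interaction of -1.72 (SE 0.48, adjusted p = 0.228) over 23 arrays and an adjusted p of 0.0101 over the 12. A second SOCS3 probe set of lower signal was called over 23 arrays, at -2.83 (SE 0.48, adjusted p = 0.0102). The fit of 12 arrays called 32 genes, of which 26 were among the 103 while the rest of the 103 were not called in it, and the 6 others were IL24, SOCS3, SERPINB3, DLX2, GLYATL1 and KANK4, named after their values were seen.

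IL6, the cytokine that signals to STAT3, did not pass in either fit. For IL6 siNEG cells read 328, 454 and 418 units with EtOH and 1749.8, 3197 and 3069.5 units with TAM, and siSTAT3 cells 179, 180.0 and 191 and 303, 459.7 and 406 units. TAM arrays of siNEG cells lay above all others and spread from 1750 to 3197 units, and the siSTAT3 TAM arrays overlapped EtOH-treated siNEG cells. The interaction was -1.64 (SE 0.38, adjusted p = 0.097), with a 95% interval of -2.45 to -0.82, and it had an adjusted p of 0.207 over the 12 arrays. CCL2, a chemokine for monocytes, read 9.04 to 18.7 units with EtOH and 2354 to 2898 units with TAM in siNEG cells. It read under 100 units in siSTAT3 cells, so that its value of -4.42 (SE 1.72, adjusted p = 0.518) rests in part on low signals. The SD of its log2 signal within groups was 0.68 at 4 h and 2.15 at 24 h. Over the 12 arrays the SE was 0.74 and the adjusted p 0.0825. Of 17 measured chemokines none was called (median 0.02), and CXCL1, CXCL2, CXCL3 and CXCL8, which attract neutrophils, lay between -0.30 and 0.51. None of 23 JAK, STAT and SOCS genes was called by its most abundant probe set, where 0.521% of all genes were called.

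The NF-kB and interferon lists showed no called interaction, where 0.521% of all genes were called, so that none in lists of this length says little. Of 22 measured NF-kB subunits, inhibitors and targets, TAM raised 4 in siNEG cells (1.67% of all genes) and 3 in siSTAT3 cells (0.551%). The median interaction was 0.08, a value that turned to -0.03 with median centring. NFKB1, the precursor of the p50 subunit, gave a like response in both. For NFKB1 siNEG cells read 1355, 1223 and 1415 units with EtOH and 1885, 2263 and 1925 units with TAM, and siSTAT3 cells 974, 948 and 892 and 1472, 1503 and 1218 units. The siSTAT3 arrays were lower at each treatment except that their TAM arrays overlapped the EtOH-treated siNEG arrays, and the TAM effects were 0.60 and 0.57. The interaction of -0.03 had a 95% interval of -0.37 to 0.31. TNFAIP3, or A20, the ubiquitin-editing brake on NF-kB, rose in both, by 0.90 and 1.22, and ICAM1, a leukocyte adhesion molecule, by 1.04 and 0.97. CYLD, a deubiquitinase of the same pathway, had an interaction of 0.25 (-0.10 to 0.60).

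Of 27 interferon-stimulated genes, TAM raised 7 and lowered 1 in siNEG cells (1.67% and 1.57% of all genes). It raised 5 in siSTAT3 cells (0.551%), and the median interaction was 0.11. IRF9, the DNA-binding part of the interferon factor ISGF3, rose by 0.76 and 0.90, IRF1 by 0.72 and 1.01 and the GTPase gene GBP1 by 0.75 and 0.85. Over all genes, 93 were called with the same direction in both kinds of cell and 3 with opposite directions. In 50 of the 93 the 95% interval of the interaction lay within 0.5 of 0 on the log2 scale, 33 of them higher and 17 lower with TAM. Among these 50, chosen after their values were seen, were the kinase MAP3K8 with 1.16 and 1.20, the protocadherin PCDH7 with 0.94 and 0.98, and the thrombomodulin gene THBD with -0.86 and -0.64. Since 0.5 was set as the width, such a gene may still differ by less than that.

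Of 20 AP-1 and CREB/ATF factors FOS was the 1 called. BATF3 had -1.10 (adjusted p = 0.0768), JUNB -0.80 (0.637), FOSL2 -0.29 (0.565), JUN 0.41 (0.798) and JUND 0.57 (0.0997). ATF3, a stress-induced repressor, rose with TAM in both kinds of cell, by 1.37 and 1.06, and its interaction was -0.31 (-0.65 to 0.03). FOSL1 had 0.00 (-0.46 to 0.46). FOSB and LIN28B, an RNA-binding protein of stem cells, had group means under 100 units throughout, so that their values of 1.00 and 0.24 carry little. TSC22D3, the glucocorticoid-induced leucine zipper, had 0.38 (0.644) and the clock factor BMAL2 -0.82 (0.455).

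In all, 20 of the 40 gene lists held a called gene, and 26 of the 103 called genes belonged to a list. With 0.521% of all genes called, a list of this length without a called gene shows nothing particular to it. No gene was called among 36 cell cycle and DNA replication genes (median 0.02), 17 cholesterol and fatty acid synthesis genes (0.13), 16 epithelial junction genes (0.14), 12 keratins (-0.01), 16 epidermal differentiation genes (-0.15), 13 YAP/TEAD targets (0.10), 14 NRF2 targets (-0.04), 20 stress genes of the endoplasmic reticulum (-0.03), 16 Notch pathway genes (0.15), 12 EGF family genes (0.33) and 11 estrogen receptor targets (0.03). Of 24 glycolysis and hypoxia genes VEGFA was the 1 called, and the list median was -0.12. Medians of 13 of the 40 lists, all within 0.10 of 0 to 2 decimals, turned sign in another scaling.

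**Figure D4:**
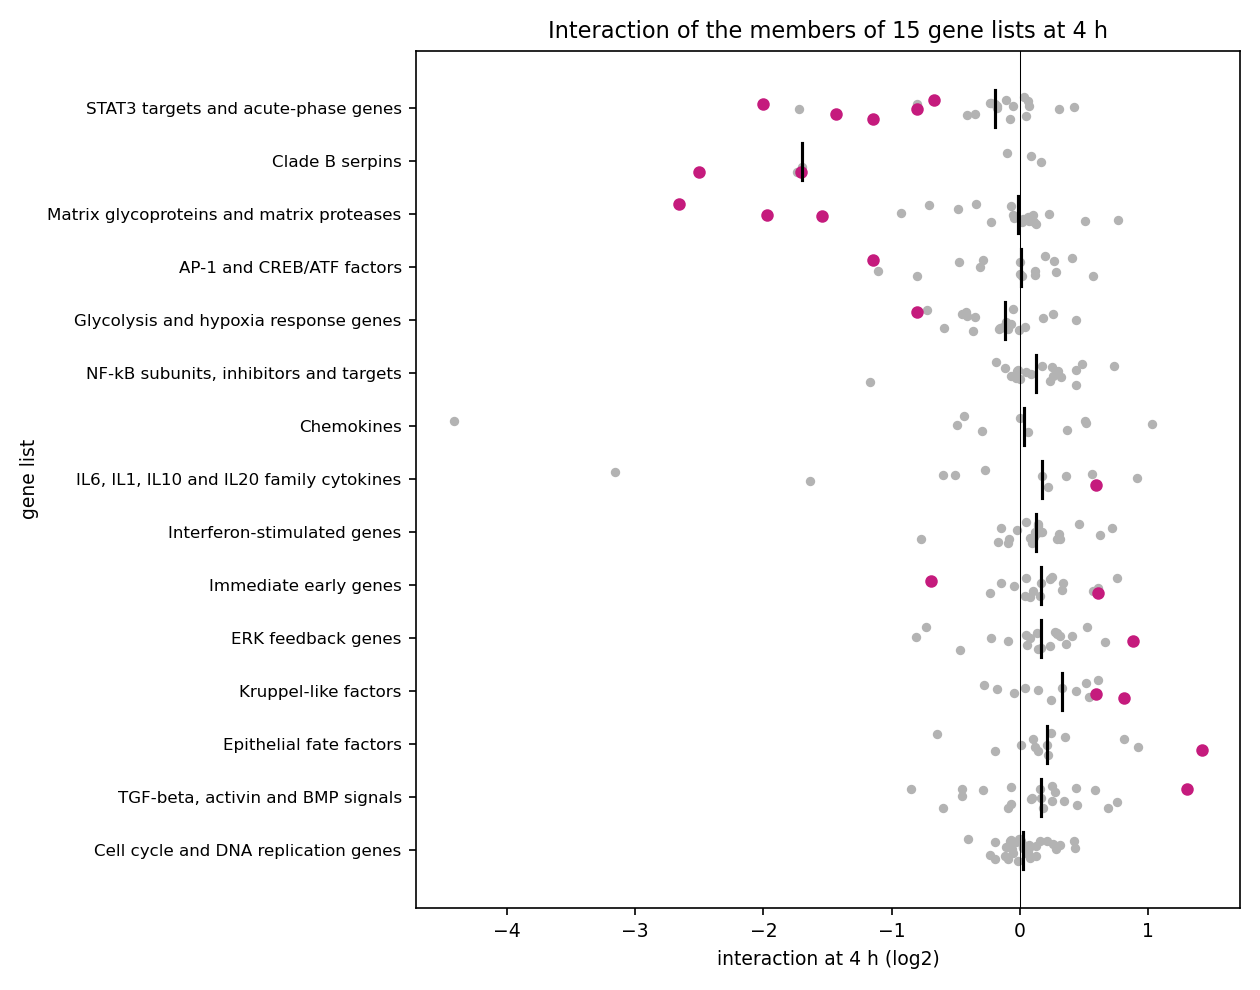
Log2 interaction at 4 h (horizontal axis) of the members of 15 gene lists (rows) with a group mean not under 100 units, 1 point per gene with vertical scatter for legibility, called genes in magenta, other genes in grey and the list's median as a bar. The called genes of the STAT3 target, serpin and matrix lists lie to the left of 0 and those of the Kruppel-like, epithelial fate and TGF-beta lists to the right, while the NF-kB, chemokine, interferon and cell cycle lists have none. The matrix list includes the hormone gene STC1.

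At 24 h the same contrast, from 11 other arrays with 2 in the siSTAT3 TAM group, was called for 1168 genes (5.91%). Of the 65 lower genes 56 were called lower at 24 h as well (2.48% of all genes) and PDP1 higher. Of the 38 higher genes 22 were called higher (3.42%) and EGR1 lower. The spread of each probe set came from the arrays of both times together, so the calls at 4 h and 24 h were not independent. Genes with a wide spread at 24 h were less likely to be called at 4 h, and these counts describe the overlap without testing it. The median interaction went from -0.90 to -1.12 in the lower group and from 0.72 to 0.60 in the higher group. The difference between the times was itself called for 275 genes (1.39%), or 152 without siSTAT3 TAM 24 h replicate 3, and for 15 and 8 genes of the groups. Among the 15, 12 were further below 0 at 24 h, RGS2 was nearer to 0, and SLC43A2 and PDP1, a phosphatase of pyruvate dehydrogenase, had turned sign. TNC went from -1.98 to -4.22, a difference of -2.24 (SE 0.30, adjusted p = 0.00113), and CLEC2B from -1.60 to -3.68. RGS2 went from -1.97 to -1.13. Among the 8, 7 were further above 0 at 24 h, with SEMA3C going from 0.67 to 2.46, DKK1 from 0.79 to 2.10 and ZBED2 from 0.80 to 2.26. EGR1 turned from 0.61 to -0.70, a difference of -1.31 (SE 0.17, adjusted p = 0.000923).

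**Figure D5:**
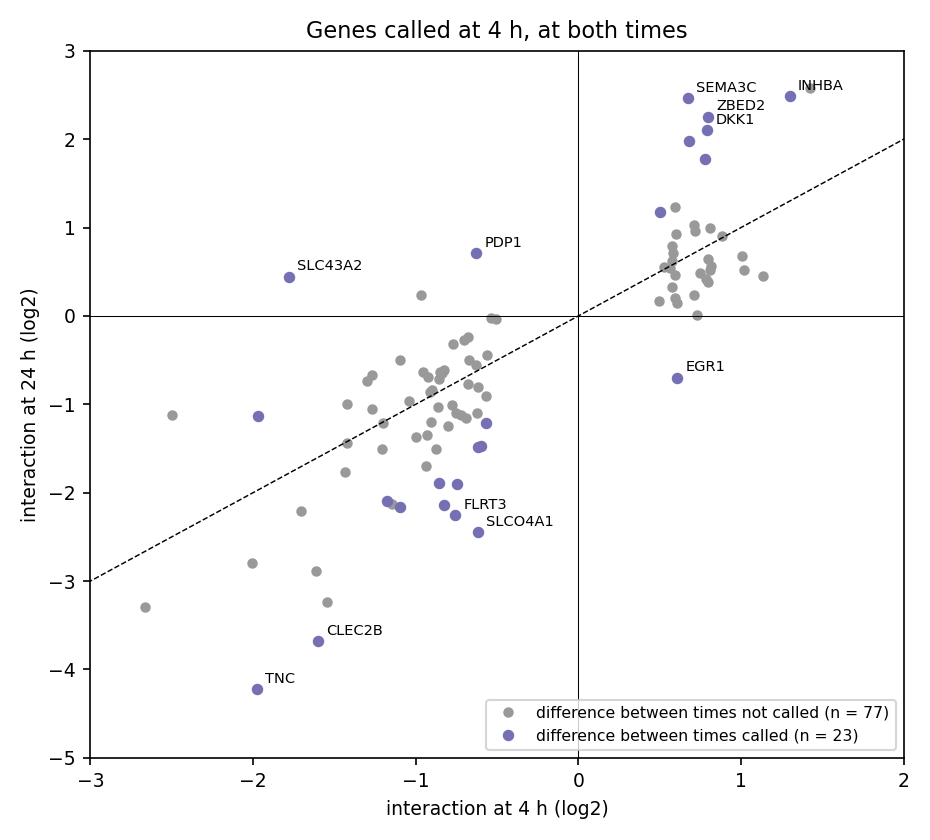
Log2 interaction at 24 h (vertical axis) against that at 4 h (horizontal axis) for the 100 genes called at 4 h with a group mean not under 100 units, purple where the difference between the times was called, grey elsewhere and the dashed line at equal values. TNC and CLEC2B lie furthest below the line, SEMA3C, ZBED2 and INHBA above it, and SLC43A2, PDP1, PCNX3 and EGR1 have opposite signs at the 2 times.

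Other probe sets of the called genes mostly pointed the same way. Of the 103 genes, 62 had another probe set with a group mean not under 100 units, and in 56 of these all such probe sets had the sign of the main probe set. A further 27 genes were called through another probe set only, which makes 130 genes by any probe set. Among these 27, picked after their values were seen, were OXR1, an oxidation resistance gene, with -1.67 (SE 0.18, adjusted p = 0.000243), TIMP3, an inhibitor of matrix proteases, with 1.20 (SE 0.11, adjusted p = 6.74e-05), CDC42EP4, an effector of CDC42, with -1.07 (SE 0.14, adjusted p = 0.000918), and the zinc transporter SLC39A8 with -0.93 (SE 0.16, adjusted p = 0.00952). The surface marker CD24 had 0.73 (SE 0.15, adjusted p = 0.0402) and 0.82 (SE 0.15, adjusted p = 0.0216) in 2 such probe sets.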

How the data were processed

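The authors hybridized RNA (100 ng per array, 3′ IVT Express kit) to Affymetrix arrays and deposited 1 linear intensity per probe set and array, which the submitters' processing notes credit to MAS5. The version, the scaling target and any genome build were not given in the sources used here. Each intensity was log2 transformed with nothing added, and group means were estimated over the 23 arrays together with limma 3.58.1 in R 4.3.3 (15 residual and 1.271 prior degrees of freedom). Contrasts were tested with eBayes and Benjamini-Hochberg adjusted over 54675 probe sets. The platform annotation gave 1 gene symbol to 41097 probe sets, several to 1801 and none to 11777, and a gene was read by its probe set of highest mean log2 signal at 4 h. Named genes were called genes with a group mean of at least 100 units, the 15 most negative and 15 most positive, up to 6 per list, and genes fixed by name. Members and lists were chosen with earlier results of these data known. Of 674 listed genes 627 were measured and the others were not analysed here. Replicate arrays differed by a mean absolute log2 of 0.174 to 0.229 over 24611 probe sets, and precision is limited by how many arrays there were. Alternatives were the 12 arrays of 4 h alone, log2(signal + 32), a low-signal filter, quantile normalization, median centring, a replicate block, a trended robust prior, the limits of the methods (p of 1e-04 and an absolute log2 of 0.5), a second probe set and each array left out.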

Additional observations from a re-analysis of the deposited data

Results flagged for a closer look

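For 10 of the named genes the interaction differed between 24 h and 4 h by the test of the difference itself (limma, adjusted p under 0.05), given here as the log2 interaction at 24 h minus that at 4 h, with 3 arrays per group and 2 in siSTAT3 TAM at 24 h. It was more negative at 24 h for the matrix glycoprotein TNC, at -2.24 (SE 0.30, adjusted p = 0.00113), for the lectin CLEC2B, at -2.08 (SE 0.28, adjusted p = 0.00118) and for the stress factor ATF3, at -1.67 (SE 0.24, adjusted p = 0.00175). ATF3 had no called interaction at 4 h and -1.98 at 24 h. It was less negative for RGS2, at 0.84 (SE 0.19, adjusted p = 0.0439), and it turned sign for the transporter SLC43A2, at 2.22 (SE 0.39, adjusted p = 0.00976), which was near the low-signal limit at 4 h, and for EGR1, at -1.31 (SE 0.17, adjusted p = 0.000923). It was more positive for INHBA, at 1.19 (SE 0.19, adjusted p = 0.00429), DKK1, at 1.31 (SE 0.18, adjusted p = 0.0016), TFCP2L1, at 1.00 (SE 0.14, adjusted p = 0.0016), and ZBED2, at 1.46 (SE 0.20, adjusted p = 0.00169).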

How the results depend on the processing

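With the 12 arrays of 4 h alone, 23 genes were lower and 9 higher, of which 20 and 7 had a TAM effect called in siNEG and not in siSTAT3 cells, and TAM changed 324 genes in siNEG and 42 in siSTAT3 cells. With the low-signal filter these were 121, 86, 102, 56, 1109 and 354, with 539 genes different between the times. With the trended robust prior, 115 were lower and 75 higher (95 and 50 with an effect called in siNEG cells only), 304 changed in siSTAT3 cells and 491 differed between times. Median centring gave 12 higher genes, 8 with an effect called in siNEG cells only, and 97 changed in siSTAT3 cells. The limits of the methods gave 300 and 87 TAM effects and 167 differences between times. With the replicate block the calls were 60 lower and 36 higher, 90 of these 96 among the 103, so no count moved by over 1.5 times with the block, and among named genes ADAMTS9, ARRDC3, SNAI2 and KLF12 lost their call. Same-numbered arrays of different groups had a median correlation of deviations of 0.0337 (18 pairs, 4 over 0.1). Arrays with other numbers had -0.0296 (36 pairs, 2 over 0.1). Whether the replicate numbers mark a pairing was not tested. With 1 array left out, the ranges were 44 to 68 lower and 22 to 40 higher genes, 41 to 61 and 14 to 30 with an effect called in siNEG cells only, 445 to 647 and 78 to 169 TAM effects, and 152 to 288 differences between times. The STAT3 difference was -3.66 to -3.53 in EtOH and -3.80 to -3.66 in TAM without 1 array, and a STAT3 probe set of low signal gave -0.068 in EtOH. Of 30 called genes named that had a second probe set, 16 were called by it with the same sign. Another 11 kept the sign without a call, namely SLC43A2, TENT5C, CLEC2B, ADAMTS9, BCL6, NRP2, KLF13, EGR1, KLF12, CPEB2 and INHBA. The other 3 turned sign. By their second probe set SH3TC1 had 0.68, IL1A -0.54 and ABTB2 -1.15, none called and all with group means under 100 units. Of the 42 called genes named, 17 stayed called in every setting run for single genes by the main probe set and none reversed. With 3 arrays per group, the smallest called interaction was 0.50.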
